A study of Mus musculus with 4 samples.

Results

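The genes described here are 34 mouse genes of glucose use and the response to low oxygen. They comprise 2 glucose transporters, 10 genes of the upper steps of glycolysis, 6 genes of its lower steps, 8 genes that route pyruvate and lactate, 4 oxygen-regulated transcription factors and their sensors, and 4 targets of those factors. They were listed by name and role, with earlier results of these data known, and all 34 were found among 52636 gene identifiers and passed the expression filter that left 18172 genes for testing. RNA was sequenced from sorted (flow-cytometry purified) mouse kidney cells in a group labelled control and a group labelled Brg1-cKO, with 2 libraries each and 3000 cells a library. Smarca4 encodes Brg1, an ATPase of SWI/SNF complexes, which remodel chromatin. By usual usage cKO stands for a conditional knockout. The allele, the Cre driver, strain, age, sex and sorting marker of either group are not given in the sources used here. Nor is it given whether libraries of 1 group are from different mice, so p-values reflect the spread among these libraries alone, and that spread may be technical.

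Glycolysis splits glucose into pyruvate in the cytoplasm. Pyruvate is then either reduced to lactate and exported, or oxidized in mitochondria through the pyruvate dehydrogenase complex, which the pyruvate dehydrogenase kinases switch off. Many of these genes are targets of the hypoxia-inducible factors (HIF), whose alpha subunits are hydroxylated and destroyed when oxygen is present. In the developing kidney, nephron progenitors are known for high glycolysis, and differentiated tubule cells for mitochondrial oxidation.

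The question here is how expression of these genes compares between the Brg1-cKO and control groups. Many glycolysis and lactate genes were lower in each Brg1-cKO library than in either control, among them Pfkfb3, Ldha, Gapdh, Pgam1, Slc2a1 and Slc16a3, while Hk2 and Bnip3l were higher in both. By the fitted fold change 24 of the 34 genes were lower and 10 higher, with a median log2 fold change of -0.33, against 53.0% of all tested genes lower and a median of -0.06. No single gene passed the adjusted threshold. In edgeR's quasi-likelihood test 0 of 34 members had an adjusted p under 0.05, as did 0% of all tested genes. At an unadjusted p under 0.05, 9 members were lower (12.9% of all tested genes were) and 0 were higher (5.44% of all were). That count of 9 was 6 with RLE scaling, 7 with DESeq2, 12 without an expression filter, 2 with the replicate number as a block, 0 without control replicate 1 or without control replicate 2, 22 without Brg1-cKO replicate 1 and 19 without Brg1-cKO replicate 2. Both Brg1-cKO libraries lay below both controls for 17 members (34.5% of all tested genes) and above both for 5 (17.5%), or 22 in either direction (52%). Scarce genes weigh on those background shares, so the same counts were taken among genes with a mean of at least 10 CPM, the count scaled to library size. There, 20 of 30 members were lower by fold change (46.8% of 10274 genes), 7 of 30 at an unadjusted p under 0.05 (5.17%), and 13 of 30 lay below both controls (25.5%), with 5 above both (23.6%), or 18 in either direction (49.2%).

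Other fits called few of these genes. DESeq2 called Pfkfb3 and Ldha (5.43% of all genes) and limma-voom called Aldoc and Car9 (1.8%), all lower. With the replicate number as a block 0 members passed (0.858% of all genes), as without control replicate 1 (0.0818%) or control replicate 2 (0.0817%). Leaving out one Brg1-cKO library leaves a lone one that is assumed to vary like the controls. Then 25 members passed without Brg1-cKO replicate 1, 22 of them lower, and 24 passed without Brg1-cKO replicate 2, 19 of them lower, but so did 55.5% and 60.6% of all genes.

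The libraries differed in more than their group label. Counts on genes totalled 35411905 and 37999342 in the controls and 14645665 and 10922272 in Brg1-cKO, and uniquely aligned reads outside counted features made up 15.4 to 16.5% in control and 49.5 to 57.2% in Brg1-cKO. Smarca4 itself was at 898 and 937 CPM in the controls and 760.1 and 691 CPM in Brg1-cKO. The 9 nephron progenitor markers summed to 1258 to 1279.7 CPM in control and 1329 to 1381 CPM in Brg1-cKO. Of these, 3 lay above both controls (17.5% of all tested genes) and 2 below both (34.5%). Six2 was among those below, at 242 and 237 CPM in the controls and 234 and 126 CPM in Brg1-cKO. The 9 podocyte markers summed to 605 to 612 CPM against 2552 to 2737 CPM, with 8 of 9 above both controls (17.5% of all tested genes). The 6 markers of the loop of Henle and distal tubule summed to 65.5 to 75.2 CPM against 184 to 242 CPM. Of these 6, Slc12a1 and Pou3f3 lay above both controls. Irx1 lay below both, at 8.38 and 9.15 CPM in the controls and 3.91 and 6.45 CPM in Brg1-cKO. Slc12a3 had 0 counts in Brg1-cKO replicate 1 and 80 in replicate 2. Umod and Kcnj1 were at or near 0 in all 4 libraries. Markers of other cells were lower in sum. The 9 stromal markers summed to 2801 to 2833 CPM against 1239 to 1385 CPM. The 9 endothelial markers summed to 699.96 to 710.0 CPM against 224 to 384 CPM. The 9 ureteric bud markers summed to 198 to 201 CPM against 49.8 to 50.7 CPM. The 8 immune markers summed to 137 to 138 CPM against 55.8 to 64.5 CPM. Below both controls lay 8 of 9 stromal, 8 of 9 endothelial, 7 of 9 ureteric bud and 6 of 8 immune markers (34.5% of all tested genes). Acta2 of the stroma, Plvap of the endothelium, Gata3 and Aqp2 of the ureteric bud, and Adgre1 and Tyrobp of the immune list overlapped. Of these lists, Calb1, Wnt9b and Wnt7b of the ureteric bud were at 0 counts in both Brg1-cKO libraries. So were C1qa of macrophages and Ren1 of the renin cells of the stroma. Other markers of the same lists were not. Gata3 of the ureteric bud was at 28.7 and 31.5 CPM in the controls and 35.1 and 18.1 CPM in Brg1-cKO. Adgre1 of the immune list was at 6.37 and 9.21 CPM in the controls, 0 in Brg1-cKO replicate 1 and 29.9 CPM in replicate 2. Fewer cells of a type and less RNA per cell cannot be told apart in such bulk samples. The part of cell makeup, read quality or depth in the differences given here was not tested. Xist was at 244 and 217 CPM in the controls and 836 and 1205 CPM in Brg1-cKO, and the Y-linked Ddx3y at 75.96 and 78.8 CPM in the controls and 1.05 and 3.27 CPM in Brg1-cKO, so sex and group cannot be told apart for any gene, the X-linked Pgk1, Pdha1 and G6pdx among them.

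**Figure D1:**
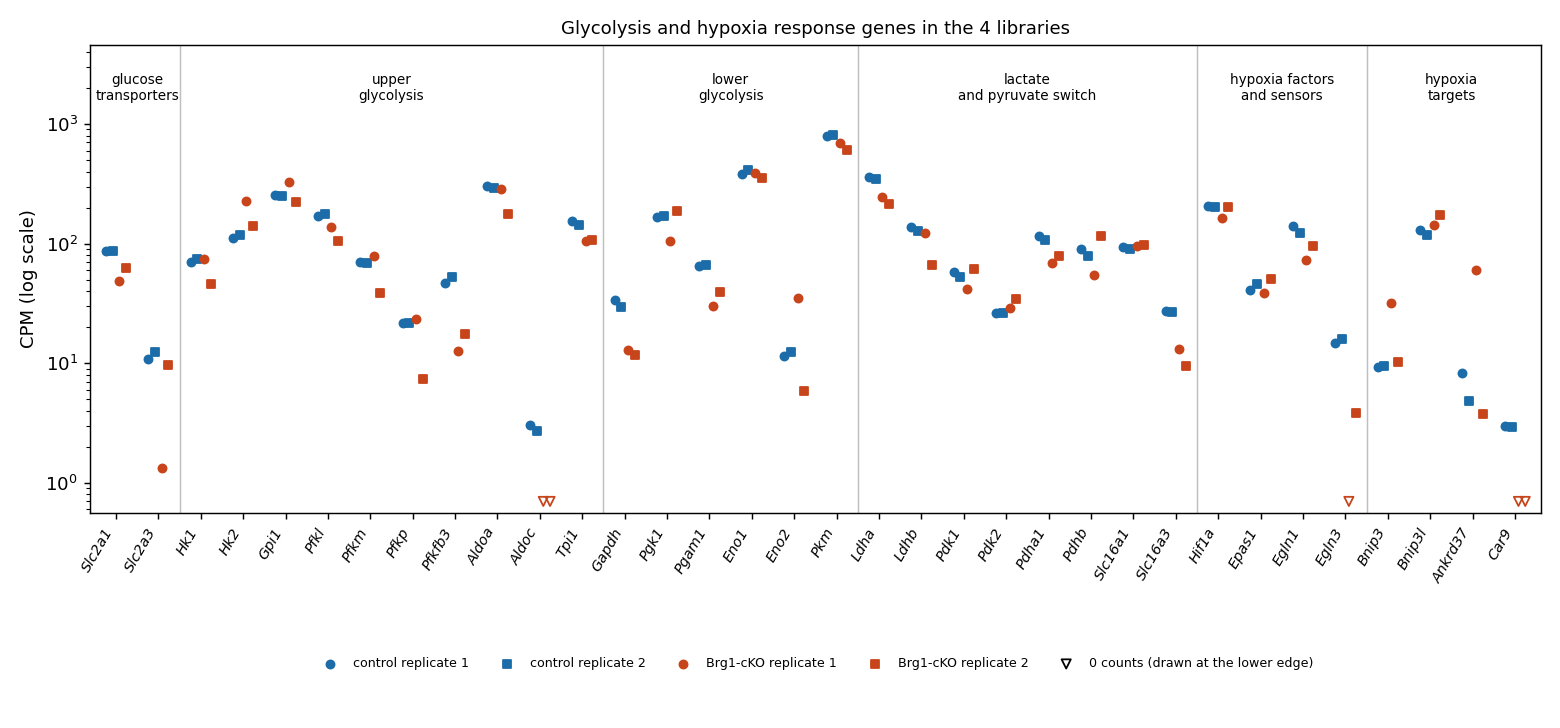
Level of each of the 34 genes in the 4 libraries, in CPM on a log axis, grouped by role. Circles and squares are replicates 1 and 2, and open triangles mark 0 counts. Pfkfb3, Gapdh, Pgam1, Ldha and Slc16a3 sit lower in both Brg1-cKO libraries, and Ankrd37, Bnip3 and Eno2 are high in Brg1-cKO replicate 1 only.

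HIF binds the short core motif ACGTG or GCGTG, so the promoters of the members were searched for it. The search covered the 250 bases before each start site in RefSeq's promoter windows (GRCm38, the mm10 build), on both strands. Windows were found for 31 of the 34 members, with 45 windows in all; Slc2a3, Epas1 and Bnip3l had no entry. The motif was in 36 of the 45 member windows (80.0%), in 53.3% of the 15110 windows of tested genes and in 38.6% of all 32851 windows. Median GC content was 61.6%, 59.2% and 52.4% in these sets, and a match describes the letters only, not a bound site. Shown here, picked after the matches were seen as windows that hold several, are those of a pair of genes that were low in both Brg1-cKO libraries, Ldha and Pfkfb3 (its second start), and of a pair that were high in replicate 1 only, Bnip3 and Ankrd37. Each is cut to the stretch outside annotated exons and written 5′ to 3′ on the gene's strand, with the core motif, or its reverse complement CACGT or CACGC, in capitals. The palindrome CACGTG holds ACGTG on both strands and was counted once for each.
Ldha, chr7:46845554-46845803, plus strand: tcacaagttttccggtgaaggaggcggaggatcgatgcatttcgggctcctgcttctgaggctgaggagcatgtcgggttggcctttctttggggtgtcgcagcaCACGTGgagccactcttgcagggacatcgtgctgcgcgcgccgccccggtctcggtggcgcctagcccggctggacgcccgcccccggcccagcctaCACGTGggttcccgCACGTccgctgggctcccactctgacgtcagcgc
Pfkfb3, chr2:11502102-11502340, minus strand: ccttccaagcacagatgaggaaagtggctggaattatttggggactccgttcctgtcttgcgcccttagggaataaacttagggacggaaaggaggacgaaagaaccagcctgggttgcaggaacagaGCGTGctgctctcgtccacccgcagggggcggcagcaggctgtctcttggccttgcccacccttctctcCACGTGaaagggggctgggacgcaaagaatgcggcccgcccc
Bnip3, chr7:138909520-138909756, minus strand: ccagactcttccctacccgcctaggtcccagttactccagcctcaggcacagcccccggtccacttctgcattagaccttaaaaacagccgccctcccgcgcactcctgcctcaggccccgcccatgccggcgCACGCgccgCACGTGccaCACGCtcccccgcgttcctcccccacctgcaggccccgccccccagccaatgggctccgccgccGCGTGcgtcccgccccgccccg
Ankrd37, chr8:45999868-46000100, minus strand: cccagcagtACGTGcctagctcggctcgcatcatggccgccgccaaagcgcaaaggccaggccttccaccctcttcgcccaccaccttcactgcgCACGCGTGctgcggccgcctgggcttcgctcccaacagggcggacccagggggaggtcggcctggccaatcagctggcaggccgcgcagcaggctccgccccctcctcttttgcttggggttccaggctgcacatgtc
These stretches hold 5 matches for Ldha, 3 for Pfkfb3, 5 for Bnip3 and 3 for Ankrd37, so both pairs carry the motif. The second Ldha window holds 1 match, and the first Pfkfb3 window holds 1, which is not outside exons. The motif was also in windows of genes that hardly differed, such as Slc16a1 with 4 matches, and it was absent from the windows of Gpi1, Tpi1 and Eno2.

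Slc2a1 encodes GLUT1, the basal glucose transporter of the cell surface, and lies at chr4:119108711-119137983 on the plus strand of mm10 (ENSMUSG00000028645). It was at 87.5 and 86.3 CPM in the controls and at 48.3 and 62.96 CPM in Brg1-cKO, so both Brg1-cKO libraries were lower. Its log2 fold change was -0.64 (SE 0.24), and the edgeR adjusted p was 0.283. Slc2a3, which encodes the high-affinity transporter GLUT3, was at 10.8 and 12.3 CPM in the controls and 1.33 and 9.62 CPM in Brg1-cKO. Only Brg1-cKO replicate 1 was far below the controls, and replicate 2 was just under them. Per kb of annotated exon Slc2a1 was the more abundant of the pair, with 93.5 to 94.4% of their summed level in control and 93.1 to 98.7% in Brg1-cKO.

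Hexokinase commits glucose to the cell by phosphorylating it. Hk2, the inducible isozyme that binds mitochondria, was at 110.5 and 119 CPM in the controls and at 229 and 139 CPM in Brg1-cKO, above both controls in each. Hk2 lies at chr6:82725025-82774454 on the minus strand (ENSMUSG00000000628). Its log2 fold change was 0.68 (SE 0.29) with an edgeR adjusted p of 0.354. Hk1, the housekeeping isozyme, was at 69.95 and 74.9 CPM in the controls and 74.8 and 45.8 CPM in Brg1-cKO, so replicate 1 lay within the controls and replicate 2 below them. The balance between the pair differed less within a group than either level did. Per kb of exon Hk2 made up 69.3% and 69.4% of the pair in the controls and 81.4% and 81.3% in Brg1-cKO, a share that does not depend on the scaling between libraries. The smallest exact two-sided permutation p for 2 against 2 libraries is 0.333, so an exact permutation test of this share could not pass, and no other test was run.

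Gpi1, glucose-6-phosphate isomerase, was at 255 and 248 CPM in the controls and 326 and 225 CPM in Brg1-cKO and its groups overlapped. Phosphofructokinase, the rate-limiting step, has a liver, a muscle and a platelet isozyme. Pfkl, the liver form, was at 171 and 176 CPM in control and 138 and 105 CPM in Brg1-cKO, a log2 fold change of -0.51 (SE 0.19) with groups that did not overlap. The muscle form Pfkm was at 70.5 and 69.3 CPM in the controls and 79.1 and 38.6 CPM in Brg1-cKO, and the platelet form Pfkp at 21.7 and 21.7 CPM in the controls and 23.6 and 7.38 CPM in Brg1-cKO. Both had replicate 1 slightly above the controls and replicate 2 at a far lower level. Pfkl was 53.0 to 54.1% of the 3 isozymes per kb in control and 44.8 to 56.6% in Brg1-cKO, with Pfkp the smallest share in all libraries at 1.98 to 3.82%.

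Pfkfb3, whose product makes the activator of phosphofructokinase, stood lower by more than any other member that had counts in every library. It was at 47.2 and 52.1 CPM in the controls and 12.6 and 17.5 CPM in Brg1-cKO. The higher Brg1-cKO library was thus far below the lower control. The log2 fold change was -1.72 (SE 0.35), and the adjusted p was 0.166 with edgeR, 0.0161 with DESeq2 and 0.119 with limma-voom. Pfkfb3 lies at chr2:11471433-11554077 on the minus strand (ENSMUSG00000026773), and its second promoter, printed above, holds 3 core motifs. The adjusted p with DESeq2 comes from the same counts and is no separate support.

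Aldolase and triose phosphate isomerase close the upper steps. Aldoa, the main aldolase here, was at 303 and 289 CPM in the controls and 285 and 176 CPM in Brg1-cKO, so replicate 1 was just under the controls and replicate 2 well below. Aldoc, the aldolase of brain, was scarce, with 3.07 and 2.70 CPM in the controls and no count in either Brg1-cKO library. Against 3 counts over the Brg1-cKO group it was at least 24.1-fold lower, a bound for counting error alone. Such zeros were common among scarce genes. Of all 18172 tested genes 1527 had 0 counts in both Brg1-cKO libraries, but 1 of the 10274 with a mean of at least 10 CPM. Of the 34 members these were Aldoc and Car9. Tpi1 was at 154 and 143 CPM in control and 106 and 108 CPM in Brg1-cKO, with a log2 fold change of -0.47 (SE 0.16) and an edgeR adjusted p of 0.237. In the upper steps 8 of 10 genes were lower by fold change and 5 lay below both controls (34.5% of all tested genes), with a median log2 fold change of -0.42.

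Among the lower steps Gapdh and Pgam1 differed most. Gapdh, which oxidizes glyceraldehyde phosphate, was at 33.7 and 29.6 CPM in the controls and 12.9 and 11.8 CPM in Brg1-cKO, a log2 fold change of -1.36 (SE 0.40). Pgam1, phosphoglycerate mutase, was at 65.4 and 66.8 CPM in the controls and 29.9 and 39.6 CPM in Brg1-cKO, a log2 fold change of -0.93 (SE 0.28). Neither pair of groups overlapped, and the edgeR adjusted p was 0.195 for Gapdh and 0.199 for Pgam1. Gapdh lies at chr6:125161715-125166467 on the minus strand (ENSMUSG00000057666) and Pgam1 at chr19:41911923-41918660 on the plus strand (ENSMUSG00000011752), and both have close copies. Of the 75-base stretches of the Gapdh transcripts 22.6% occur exactly in other genes, 115 pseudogenes among them, and of those of Pgam1 34.9% occur in 2 pseudogenes. Reads that align to several places (6.55 to 9.06% of a library) were set apart by the authors, so reads from such stretches can be missing in every library. Gapdh ranked only 23rd of the 34 genes per kb of exon in control.

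Pkm, pyruvate kinase of muscle and fetal tissue, was the most abundant member per kb of exon in both groups. Pkm was at 788 and 809 CPM in control and 689 and 608 CPM in Brg1-cKO, so both Brg1-cKO libraries were lower by a small margin (log2 fold change -0.30 (SE 0.10), edgeR adjusted p 0.242). Counts per gene do not separate its M1 and M2 splice forms, and 17.8% of its 75-base stretches occur in other genes. Pgk1, phosphoglycerate kinase, was at 166 and 169.5 CPM in the controls and 106 and 188 CPM in Brg1-cKO, with replicate 1 below and replicate 2 above the controls. Pgk1 lies on the X chromosome and shares 52.8% of its 75-base stretches with pseudogenes. Eno1, the common enolase, was at 379.5 and 414 CPM in the controls and 391 and 350.1 CPM in Brg1-cKO and overlapped. Eno2, the neuronal enolase, was at 11.5 and 12.3 CPM in the controls and 34.9 and 5.89 CPM in Brg1-cKO, so that the Brg1-cKO libraries lay on either side of the controls. Eno1 made up 90.7 to 98.1% of the enolase pair per kb in every library. Of the 6 lower-step genes 5 were lower by fold change and 3 lay below both controls, beside 34.5% of all tested genes; 3 of 6 without overlap is near the 52% of all.

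**Figure D2:**
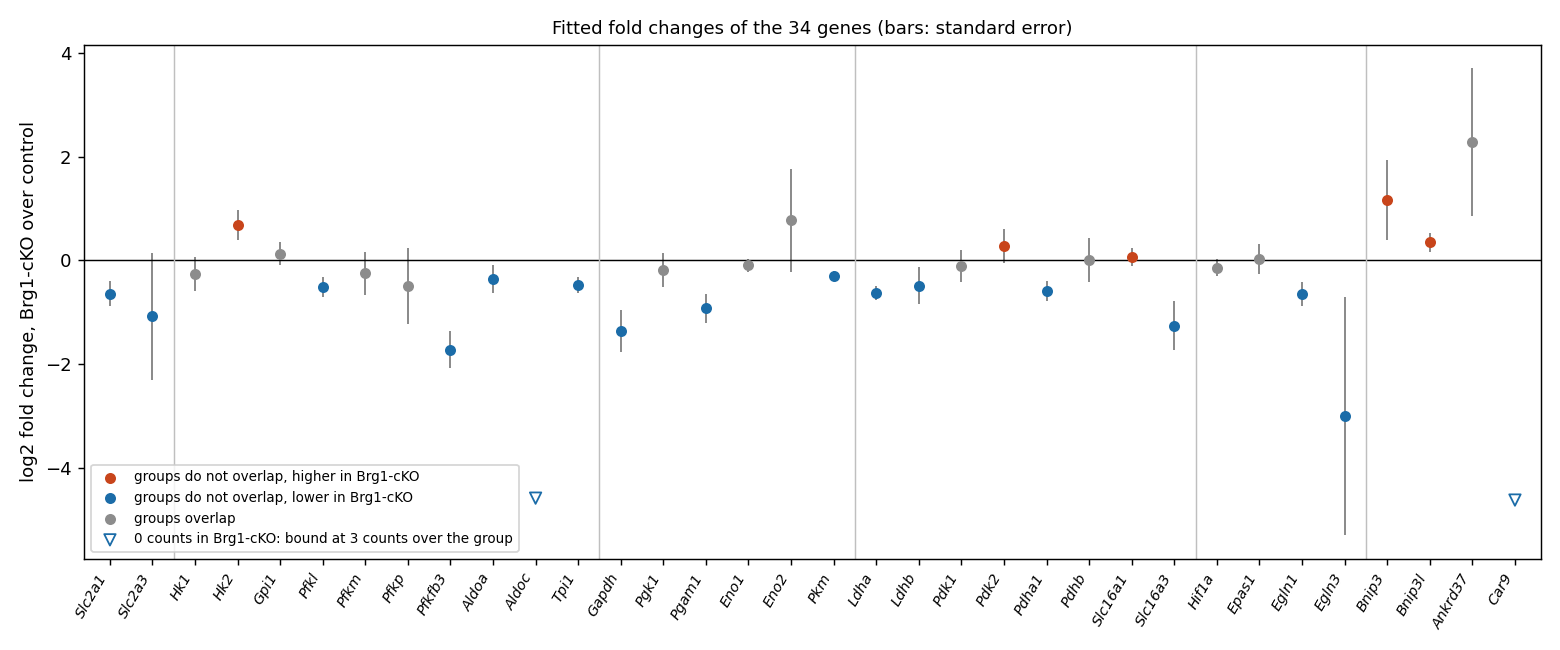
Fitted log2 fold change of each gene in Brg1-cKO over control, with bars of 1 standard error. Filled colors mark genes whose groups do not overlap, and open triangles mark genes at 0 counts in Brg1-cKO, drawn at the bound that 3 counts over the group allow. Ldha at -0.63 has a short bar and Pfkfb3 stands at -1.72, and among the genes drawn with a bar Egln3 and Ankrd37 have the widest.

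Lactate dehydrogenase turns pyruvate into lactate. Ldha, the subunit that favors lactate, was at 361 and 347 CPM in the controls and 245 and 213 CPM in Brg1-cKO. Its 4 values left a clear gap between the groups, with the lowest control at 347 CPM and the highest Brg1-cKO library at 245 CPM. The log2 fold change was -0.63 (SE 0.13), and the adjusted p was 0.166 with edgeR, 0.0245 with DESeq2 and 0.0946 with limma-voom. Ldha lies at chr7:46841475-46855627 on the plus strand (ENSMUSG00000063229), and the Ldha promoter printed above lies within these bounds, at an inner start site. Ldhb, the subunit that favors pyruvate, was at 138 and 128 CPM in the controls and 123 and 66.6 CPM in Brg1-cKO, just below the controls in replicate 1 and far below in replicate 2. The Ldha share of the pair per kb was 55.4 and 56.2% in control and 48.5 and 60.2% in Brg1-cKO, so the balance of the subunits overlapped although both were lower.

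Monocarboxylate transporters carry lactate across the membrane. Slc16a3 (MCT4), the exporter of glycolytic cells, was at 27.3 and 26.9 CPM in the controls and 13.1 and 9.53 CPM in Brg1-cKO, a log2 fold change of -1.26 (SE 0.47) with an edgeR adjusted p of 0.285. Slc16a1 (MCT1), which carries lactate either way, was at 94.4 and 90.4 CPM in the controls and 95.2 and 97.4 CPM in Brg1-cKO, a difference of 0.06 on the log2 scale (SE 0.18). Per kb of exon Slc16a1 made up 80.6 and 80.1% of the pair in the controls and 89.7 and 92.5% in Brg1-cKO. The balance therefore lay toward MCT1 in both Brg1-cKO libraries. Slc16a3 lies at chr11:120948480-120960868 on the plus strand (ENSMUSG00000025161).

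The pyruvate dehydrogenase group was mixed. Pdk1, the HIF-regulated kinase, was at 57.8 and 53.00 CPM in the controls and 41.4 and 61.7 CPM in Brg1-cKO, on either side of the controls. Pdk2, the widely expressed kinase, was at 26.2 and 26.1 CPM in the controls and 29.1 and 34.2 CPM in Brg1-cKO, higher in both but by a log2 fold change of only 0.27 (SE 0.33). Pdha1, the catalytic alpha subunit, was at 116 and 107 CPM in control and 68.6 and 79.5 CPM in Brg1-cKO, lower in both (-0.59 (SE 0.19) on the log2 scale, edgeR adjusted p 0.234). Pdhb, the beta subunit of the same enzyme, was at 90.2 and 79.2 CPM in the controls and 54.9 and 116 CPM in Brg1-cKO, with replicate 1 below the controls and replicate 2 above them. Pdha1 is X-linked, and Pdhb is not.

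The largest difference in this branch was outside the 34 genes, in Pdk4, the kinase that fasting and fat use induce. It was at 3.997 and 2.54 CPM in the controls and 49.8 and 81.6 CPM in Brg1-cKO, a log2 fold change of 4.33 (SE 0.51). Both Brg1-cKO libraries were more than 10 times the higher control. Its adjusted p was 0.166 with edgeR, 0.311 with edgeR without an expression filter, 4.51e-12 with DESeq2 and 0.0828 with limma-voom. It was 1.21e-04 in edgeR with the replicate number as a block, which pairs libraries that share only a number. Among the 4 kinases per kb of exon Pdk4 made up 3.005 and 1.93% in the controls and 23.5 and 34.9% in Brg1-cKO, while the shares of Pdk1, Pdk2 and Pdk3 were each lower in both. Of the 9 proximal tubule markers 1 lay above both controls (17.5% of all tested genes) and 2 below both (34.5%). Their sum was 110.1 to 114 CPM in control and 110.1 to 163 CPM in Brg1-cKO, and Fbp1 was at or near 0 in all 4 libraries. The 1 above was Slc34a1, a phosphate transporter, at 2.79 and 2.98 CPM in the controls and 24.7 and 45.2 CPM in Brg1-cKO, and Slc3a1, an amino acid transporter subunit, was at 0.727 and 1.04 CPM in the controls and at 0 in Brg1-cKO.

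**Figure D3:**
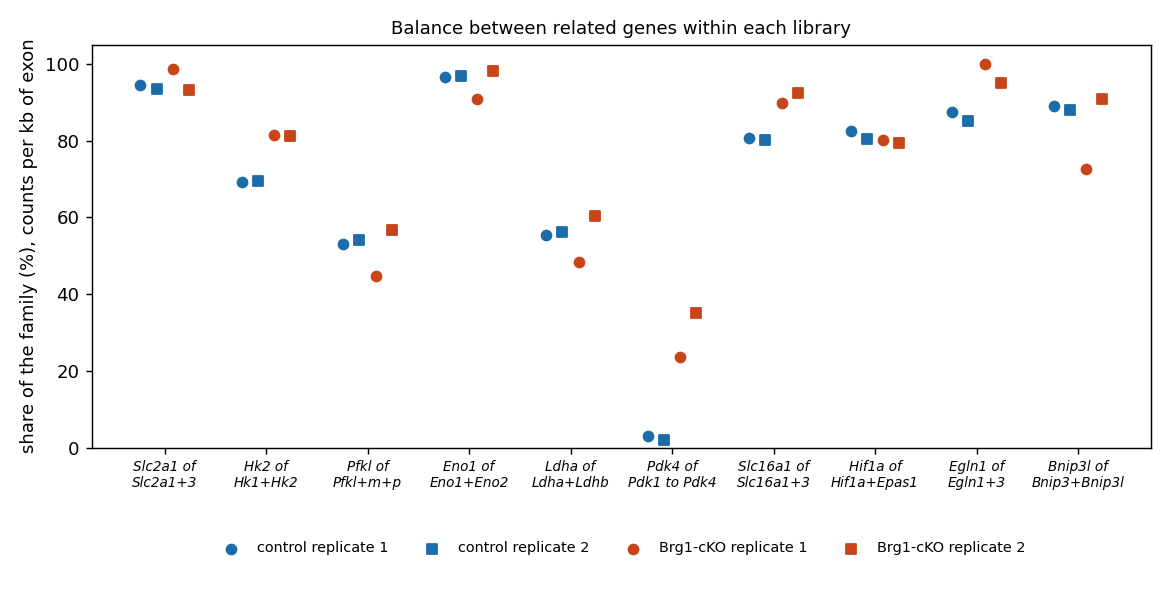
Share of 1 gene within its family in each library, from counts per kb of annotated exon, which needs no scaling between libraries. Hk2 stands at 81% in both Brg1-cKO libraries against 69% in both controls, Slc16a1 and Pdk4 take larger shares in Brg1-cKO, and the shares of Ldha, Pfkl and Bnip3l split the Brg1-cKO libraries to either side of the controls.

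Among the oxygen-sensing genes the mRNA of both HIF alpha factors overlapped between the groups. Hif1a, the widely expressed alpha subunit, was at 205 and 201 CPM in the controls and 165 and 203 CPM in Brg1-cKO, and Epas1, which encodes HIF-2 alpha, at 41.3 and 46.4 CPM in the controls and 38.9 and 50.4 CPM in Brg1-cKO. Their log2 fold changes were -0.14 (SE 0.16) and 0.03 (SE 0.29). Hif1a made up 80.4 to 82.5% of the pair per kb in control and 79.3 to 80.1% in Brg1-cKO. Because HIF alpha is controlled by protein breakdown, these mRNA levels do not measure its activity. The 9 endothelial markers, of a cell type known for Epas1, were lower in sum while Epas1 was not.

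Egln1 and Egln3 encode prolyl hydroxylases that mark HIF alpha for breakdown in oxygen. Egln1 was at 141 and 123 CPM in the controls and 72.3 and 96.4 CPM in Brg1-cKO, lower in both, with a log2 fold change of -0.64 (SE 0.23) and an edgeR adjusted p of 0.275. Egln3, itself a HIF target, was at 14.9 and 15.8 CPM in the controls, at 0 counts in Brg1-cKO replicate 1 and at 3.83 CPM in replicate 2. A count of 0 in replicate 1 allows up to 0.210 CPM. Both Brg1-cKO libraries lay below the controls, but the fitted log2 fold change of -3.01 (SE 2.29) rests on a single library with counts, with an edgeR adjusted p of 0.611. Egln1 made up 87.5 and 85.1% of the pair per kb in the controls and 100% and 94.9% in Brg1-cKO.

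The 4 hypoxia targets had no common direction. Bnip3l (NIX), a receptor for the removal of mitochondria, was at 131 and 117 CPM in the controls and 143 and 172 CPM in Brg1-cKO, above both controls in each, with a log2 fold change of 0.35 (SE 0.18). Its relative Bnip3 was at 9.36 and 9.46 CPM in the controls and 31.9 and 10.3 CPM in Brg1-cKO, high in replicate 1 and close to the controls in replicate 2. Ankrd37, a small HIF target, was at 8.27 and 4.88 CPM in the controls and 60.4 and 3.74 CPM in Brg1-cKO. Its replicate 1 was 16.2-fold above replicate 2, which lay below both controls, and the log2 fold change of 2.29 (SE 1.43) had an edgeR adjusted p of 0.531. Without Brg1-cKO replicate 1 the fold change of Ankrd37 was -0.84. Car9, carbonic anhydrase 9, a membrane enzyme that HIF induces strongly, was at 2.99 and 2.93 CPM in the controls with no count in either Brg1-cKO library. Against 3 counts over the group Car9 was at least 24.7-fold lower, a bound for counting error alone. Bnip3, Ankrd37 and Car9 all hold the core motif in their promoter windows, though the 1 match of Car9 is not outside exons. In any window, 28 of 31 members held it (90.3%), and 59.1% of tested genes with a window did. With a motif this common among the members, its presence cannot separate higher from lower genes.

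Replicate 1 of Brg1-cKO was not high for hypoxia genes in general. It was the higher of the 2 Brg1-cKO libraries for Bnip3, Ankrd37, Eno2 and Hk2 and the lower for Slc2a3, Egln3, Pgk1, Pdk1 and Pfkfb3. Over the 34 genes each Brg1-cKO library was the higher in 16, with 2 at 0 in both. Among the 30 members with a mean of at least 10 CPM the median fold between the 2 Brg1-cKO libraries was 1.36, against 1.06 between the controls. Over all tested genes at that level with counts in both libraries of a group the medians were 1.59 (10167 genes) and 1.07 (10262 genes). Counting error is small beside this: Ankrd37 had 864 and 40 counts in the Brg1-cKO libraries.

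The wider pathway gave no uniform direction. Of 117 further genes in 7 lists 107 were tested, 56 were higher and 51 lower by fold change, and the median was 0.01. At an unadjusted p under 0.05 in edgeR's quasi-likelihood test there were 8 higher (5.44% of all tested genes) and 9 lower (12.9%), and 0 at an adjusted p under 0.05. Of 17 tested other glycolysis genes 10 were lower (53.0% of all tested genes were), 4 below both controls (34.5% of all) and 0 above both (17.5% of all). In this list Pfkfb4, a relative of Pfkfb3, was at 10.8 and 13.1 CPM in the controls and 1.12 and 5.70 CPM in Brg1-cKO, and the most abundant members Adpgk and Eno3 overlapped. Adpgk, an ADP-dependent glucokinase, was at 65.5 and 79.3 CPM in the controls and 44.4 and 89.2 CPM in Brg1-cKO, and Eno3, the muscle enolase, at 30.04 and 25.2 CPM in the controls and 25.3 and 35.8 CPM in Brg1-cKO.

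Glycogen and gluconeogenesis genes were balanced, with 6 of 12 tested genes higher and 6 lower. Slc37a4, the glucose-6-phosphate transporter of the endoplasmic reticulum, was at 15.7 and 15.8 CPM in the controls and 28.9 and 34.5 CPM in Brg1-cKO, and Ugp2, which makes UDP-glucose, at 55.3 and 58.4 CPM in the controls and 75.3 and 79.8 CPM in Brg1-cKO, both above the controls. Gys1, muscle-type glycogen synthase, was at 69.1 and 56.04 CPM in the controls and 50.1 and 23.5 CPM in Brg1-cKO, and Pgm1 at 24.3 and 25.05 CPM in the controls and 1.68 and 20.8 CPM in Brg1-cKO, both below. The most abundant of this list, the glycogen phosphorylase Pygb, was at 141 and 134 CPM in the controls and 87.4 and 154 CPM in Brg1-cKO and overlapped.

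The pentose phosphate pathway, which branches from glycolysis to make NADPH and ribose, also split evenly at 4 of 8 each way. Tkt, transketolase, was its most abundant gene at 381 and 388 CPM in the controls and 456 and 316 CPM in Brg1-cKO, and overlapped. Rpia, which makes ribose-5-phosphate, was at 27.9 and 30.4 CPM in the controls and 67.4 and 43.5 CPM in Brg1-cKO, and H6pd at 50.2 and 51.01 CPM in the controls and 62.3 and 67.4 CPM in Brg1-cKO, above the controls in both. G6pdx, the X-linked entry enzyme, was at 47.3 and 46.2 CPM in the controls and 33.7 and 36.2 CPM in Brg1-cKO, and Taldo1, transaldolase, at 133 and 134 CPM in the controls and 123 and 103 CPM in Brg1-cKO, below in both. Their log2 fold changes ran from -0.42 for G6pdx to 0.93 for Rpia.

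Of the 16 genes of pyruvate entry and other lactate genes 11 were higher by fold change, and 4 lay above both controls (17.5% of all tested genes) and 4 below both (34.5%). Bsg, the chaperone of the lactate transporters, was the most abundant at 274 and 291 CPM in the controls and 399 and 305 CPM in Brg1-cKO. Slc16a7 (MCT2), a high-affinity monocarboxylate carrier, was at 8.30 and 8.19 CPM in the controls and 21.9 and 13.7 CPM in Brg1-cKO. Dld, the shared E3 subunit, was at 121 and 123 CPM in the controls and 101 and 239.5 CPM in Brg1-cKO, on either side of the controls, and Pdhx, which anchors it, at 32.7 and 31.5 CPM in the controls and 15.9 and 24.1 CPM in Brg1-cKO, below both. Of 9 other glucose transporters 6 were higher and 3 lower by fold change, with a median log2 fold change of 0.88. Above both controls lay 2 (17.5% of all tested genes) and below both 3 (34.5%). Slc2a4 (GLUT4), the insulin-responsive one, was at 16.8 and 20.5 CPM in the controls and 5.38 and 4.20 CPM in Brg1-cKO. Its log2 fold change was -1.96 (SE 0.67). Slc2a8 was at 10.1 and 13.7 CPM in the controls and 18.1 and 12.2 CPM in Brg1-cKO.

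Other components of the HIF pathway were lower in 10 of 12 by fold change (53.0% of all tested genes). Of the 12, 3 lay below both controls (34.5% of all), a smaller share than over all genes, and 0 above both. The coactivators Crebbp and Ep300 were the most abundant. Crebbp was at 288 and 305 CPM in the controls and 217 and 198 CPM in Brg1-cKO, a log2 fold change of -0.52 (SE 0.12), and Ep300 at 319.7 and 297 CPM in the controls and 193 and 249 CPM in Brg1-cKO, a log2 fold change of -0.48 (SE 0.17). Elob, a subunit of the ubiquitin ligase that removes HIF alpha, was at 75.2 and 77.5 CPM in the controls and 32.3 and 54.9 CPM in Brg1-cKO. None of these passed the adjusted threshold in edgeR's quasi-likelihood test.

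**Figure D4:**
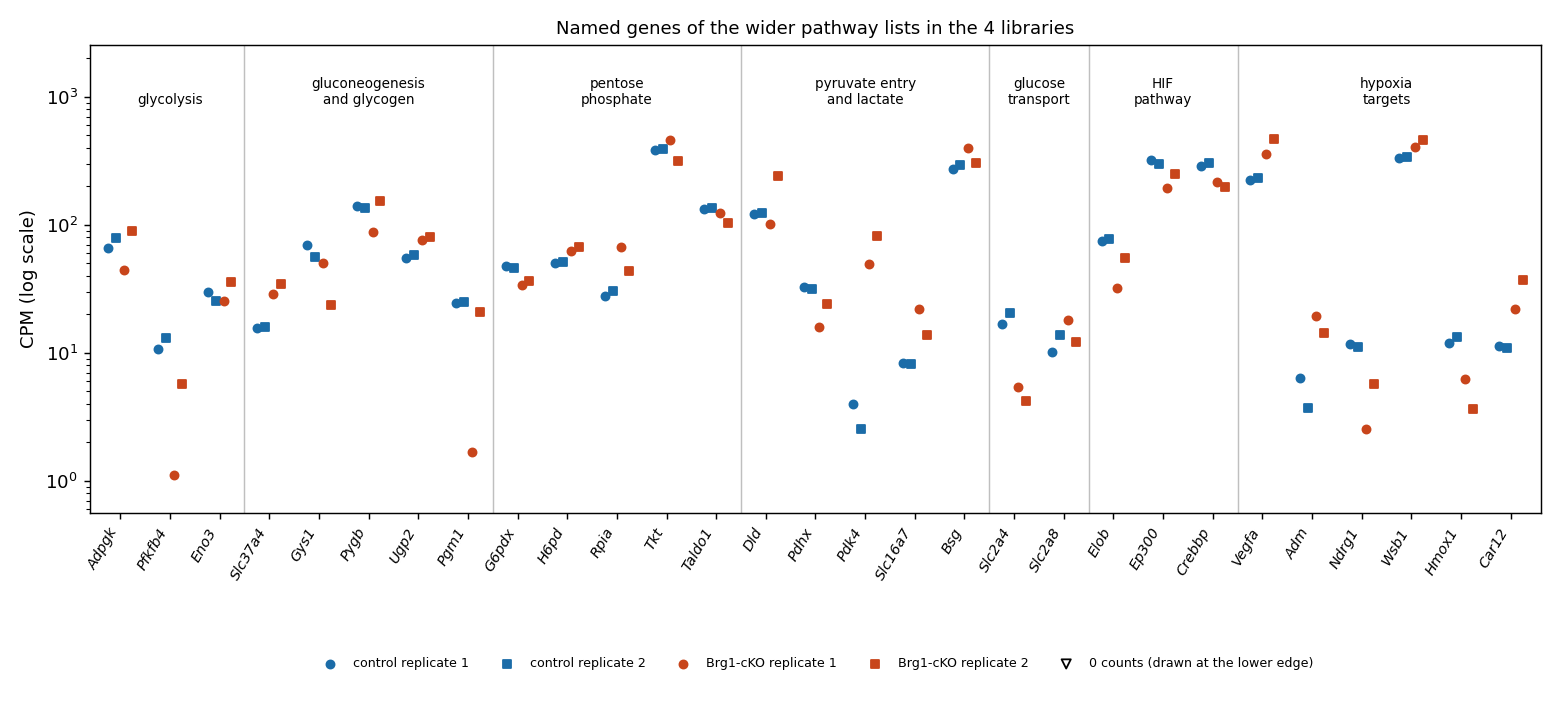
Level in each library, in CPM on a log axis, of the genes named from the 7 wider lists. Pdk4 has the widest gap between the groups, Vegfa, Adm and Car12 sit higher in both Brg1-cKO libraries, and Slc2a4, Ndrg1 and Hmox1 sit lower.

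The other hypoxia targets were more often higher than lower. Of 33 tested 20 were higher and 13 lower, and 10 lay above both controls (17.5% of all tested genes) and 4 below both (34.5%). At an unadjusted p under 0.05 there were 7 higher (5.44% of all tested genes, and 7.31% of those at 10 CPM or more) and 2 lower (12.9% and 5.17%). Vegfa, the endothelial growth factor that podocytes secrete, was at 222 and 229.9 CPM in the controls and 355 and 471 CPM in Brg1-cKO, a log2 fold change of 0.87 (SE 0.18). Its adjusted p was 0.166 with edgeR, 0.412 with edgeR without an expression filter, 8.16e-04 with DESeq2 and 0.0932 with limma-voom. It was 0.0352 in edgeR with the replicate number as a block, which pairs libraries that share only a number. The 9 podocyte markers, as given above, were also higher, and their part in the Vegfa level was not tested.

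Wsb1, an abundant ubiquitin ligase adaptor, was at 332 and 336 CPM in the controls and 407 and 456 CPM in Brg1-cKO. The vasodilator peptide gene Adm was at 6.37 and 3.73 CPM in the controls and 19.2 and 14.3 CPM in Brg1-cKO, and Car12, a relative of Car9, at 11.2 and 10.9 CPM in the controls and 21.8 and 36.7 CPM in Brg1-cKO. Besides Vegfa, Wsb1 and Car12, an unadjusted edgeR p under 0.05 on the higher side was found for P4ha2, Ak4, Higd1a and Tgfa. P4ha2, Ak4, Higd1a and Tgfa were named after their values were seen. P4ha2, a collagen prolyl hydroxylase, was at 29.3 and 24.5 CPM in the controls and 46.1 and 77.3 CPM in Brg1-cKO, and Tgfa, a growth factor, at 28.6 and 25.2 CPM in the controls and 50.5 and 84.4 CPM in Brg1-cKO. Lower in both Brg1-cKO libraries were Ndrg1 at 11.8 and 11.1 CPM in the controls and 2.52 and 5.70 CPM in Brg1-cKO, Hmox1, heme oxygenase, at 12.02 and 13.4 CPM in the controls and 6.22 and 3.64 CPM in Brg1-cKO, and Igfbp3 at 49.1 and 46.9 CPM in the controls and 19.3 and 18.5 CPM in Brg1-cKO. Igfbp3, the last of these, was also named after its values were seen. Whether the glycolytic members and these targets differ from each other was not tested.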

How the data were processed

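The authors deposited raw counts of reads per Ensembl gene for each library, as whole numbers. Per the submitters' processing notes mm10, TopHat and DESeq2 were used; the counter, its strand setting and its gene models are not given in the sources used here. Reads given to no gene (31.8 to 72.1% of a library) were left out. Symbols, positions and exon lengths came from GENCODE M21 (52403 of 52636 identifiers matched). Of 2 identifiers named Aldoa, ENSMUSG00000030695 was used. Slc2a1, Hk1, Gpi1, Pfkm, Pfkp, Aldoa, Tpi1, Gapdh, Pdha1, Hif1a, Bnip3, Ankrd37 and Car9 share exon sequence with an antisense gene, and Pfkm, Pkm and Hif1a with a gene on their own strand, so their counts are uncertain if strand was ignored.

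Groups came from the sample titles. edgeR 4.0.16 (R 4.3.3) was fitted to all 4 libraries with the group as its only term: TMM scaling, the default expression filter (minimum count 10), robust quasi-likelihood F test and Benjamini-Hochberg adjustment over all 18172 tested genes at 0.05. CPM uses TMM-scaled library sizes. Standard errors are the log2 fold change over the root of F. Functions were tested on counts simulated with the spread of the control pair in all 4 libraries. The wider spread between the Brg1-cKO libraries was not simulated. Alternatives were RLE scaling, scaling without mitochondrial, ribosomal protein and hemoglobin genes, DESeq2 1.42.0, limma-voom (limma 3.58.1), 2 other filters, a replicate block and each library left out. A count of 0 allows up to 3 counts, counting error only.

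All 34 members are named. From each wider list the 2 most abundant genes are named, any past the adjusted threshold, and up to 2 higher and 2 lower genes with the largest fold, no overlap and at least 10 CPM. One result of the wider lists is not reported here. Members, lists and gene families were chosen with earlier results of these data known.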

Additional observations from a re-analysis of the deposited data

Results flagged for a closer look

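These 4 genes of the wider lists failed the expression filter and so entered no test, yet had more than 3 counts in 1 Brg1-cKO library and a level above both controls. Epo, the erythropoietin gene and a HIF-2 target of the adult kidney, was at 19.4 CPM (208 counts) in Brg1-cKO replicate 2, at 0 counts in Brg1-cKO replicate 1, and at 0 and 0.233 CPM in the controls. Nrn1 was at 21.7 CPM (310 counts) in Brg1-cKO replicate 1, at 0 in replicate 2 and at 0.280 and 0.0519 CPM in the controls. Pck1, the gluconeogenic enzyme of the proximal tubule, was at 5.94 CPM (85 counts) in Brg1-cKO replicate 1, at 0 in replicate 2 and at 0.112 and 0.104 CPM in the controls. Gys2, liver-type glycogen synthase, was at 4.89 CPM (70 counts) in Brg1-cKO replicate 1 and at 0 in the other 3 libraries. Each rests on a single library.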

How the results depend on the processing

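Direction and call of all 34 genes were the same under RLE scaling and under scaling without mitochondrial, ribosomal protein and hemoglobin genes. Genes past an adjusted p of 0.05 over all genes numbered 987 with DESeq2 (NA for 2819 genes, none a member), 327 with limma-voom, 156 with the replicate block, and 16 to 13262 with 1 library left out; 0 passed with the other settings, of which the 10 CPM filter left 31 members. Members past it numbered 2 with DESeq2, 2 with limma-voom, 0 with the replicate block and 0 to 25 with 1 library left out. The number whose groups do not overlap was 22, and 22 to 34 with 1 library left out, because a lone library overlaps less easily. Same-numbered libraries did not deviate together (correlation -0.02 over tested genes), so the block pairs samples that share only a number.

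With 1 library left out the median log2 fold change ran from -2.003 to -0.39 for glucose transporters, -0.76 to -0.0258 for upper glycolysis, -0.59 to -0.26 for lower glycolysis, -0.50 to -0.23 for the lactate and pyruvate group, -0.60 to -0.25 for hypoxia factors and sensors, and -0.37 to 0.96 for hypoxia targets. Single genes that changed sign were Hk1 (-0.69 to 0.0254), Gpi1 (-0.19 to 0.36), Pfkm (-0.89 to 0.16), Pfkp (-1.59 to 0.10), Pgk1 (-0.68 to 0.14), Eno2 (-1.05 to 1.53), Pdk1 (-0.44 to 0.13), Pdhb (-0.65 to 0.43), Slc16a1 (-0.0016 to 0.0554), Epas1 (-0.19 to 0.17) and Ankrd37 (-0.84 to 3.18). Pdhb was also below 0 with limma-voom (-0.15), without a filter (-0.0225) and with the replicate block (-0.0811), and Epas1 with limma-voom (-0.0125) and without a filter (-0.0093). The cause was not tested. With 2 libraries a group and a spread between the Brg1-cKO libraries (biological coefficient of variation 1.15, against 0.174 in control), fold changes of single genes are imprecise.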

Other observations

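Per kb of annotated exon, the members ranked in control from Pkm at 159.6 CPM per kb, Ldha at 107, Aldoa at 102 and Ldhb at 84.8 down to Aldoc at 0.884 CPM per kb. In Brg1-cKO the first 3 were Pkm at 129.7, Aldoa at 79.2 and Ldha at 69.1 CPM per kb, so Ldha and Aldoa changed places. The 15 enzymes and isozymes from glucose to pyruvate, without Pfkfb3, summed to 2603 and 2645 CPM in the controls and to 2525 and 2049 CPM in Brg1-cKO. Their sum in Brg1-cKO replicate 1 was thus near the controls, although Gapdh, Pgam1 and Tpi1 were each lower in it.

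The 8 listed erythroid markers were scarce in all libraries but Brg1-cKO replicate 1. They summed to 0.503 and 1.32 CPM in the controls and to 29.6 and 0.934 CPM in Brg1-cKO. In Brg1-cKO replicate 1 that sum was Slc4a1 alone, and the listed hemoglobin genes had 0 counts. Over all hemoglobin genes, listed or not, the share of counts was 0.0057% in that library and 1e-04% in each of the others. Bnip3 and Ankrd37 were also high in Brg1-cKO replicate 1. The part of erythroid genes in those levels was not tested.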
